A study of Mus musculus with 6 samples.

Results

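The 32 genes described here encode the enzymes that make cholesterol and fatty acids and the proteins that set the activity of both pathways. They were taken from the deposited table by gene symbol and are 32 of its 25965 rows. The set holds 17 sterol synthesis enzymes, 6 regulators and 9 fatty acid enzymes. Sc4mol is the table's older name for Msmo1. RNA had been sequenced from 6 mouse cell lines, all of them positive for BCR-ABL, the fusion kinase of the Philadelphia chromosome. In KO1, KO2 and KO3, cells had received a px458 plasmid that carries Cas9, GFP and guide RNAs against CDK6, a kinase of the early cell cycle. The labels name this plasmid hCDK6del while the lines are mouse, the guide sequences were not used here, and whether they match mouse Cdk6 was not tested. WT1, WT2 and WT3, labelled Cdk6 wild type, belong to the arm for which the labels name the px458 control plasmid without these guides. GFP positive cells had been sorted and grown out as clones in RPMI medium with fetal calf serum, and per the labels a Western blot served to verify the knockout. Each KO line is thus 1 clone, and no label says whether the lines of a group go back to separate animals or cultures. The p-values measure only the spread between these 6 lines.

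Cholesterol is built from acetyl-CoA through mevalonate, squalene and lanosterol, and fatty acids are built from the same acetyl-CoA through malonyl-CoA. Both sets of genes are switched on by the SREBP transcription factors, encoded by Srebf1 and Srebf2. These factors wait in the endoplasmic reticulum membrane bound to SCAP. When sterols are low, SCAP escorts them to the Golgi, where they are cut and released to the nucleus. When sterols are plentiful, the INSIG proteins hold SCAP back. Growing leukemic cells need sterols and fatty acids for new membranes.

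The SREBP factors bind a sterol regulatory element in promoters, often beside a box for the factor NF-Y. The RefSeq table of promoters (GRCm38.p6, 250 bases before to 50 bases after each annotated start) held 25 of the 32 genes. It was searched on both strands for the sterol element TCACNCCAC, the E-box CACGTG, the NF-Y box CCAAT and the GC box GGGCGG. The sterol element was found in 1 of the 25 genes (4%), against 1.44% of 27025 genes in the table, and that gene was Hmgcs1. The NF-Y box was found in 21 of 25 (84%, against 41.1%) and the GC box in 21 of 25 (84%, against 38.2%). The E-box was found in 5 of 25 (20%, against 8.09%), namely Dhcr7, Hsd17b7, Insig1, Sc5d and Scap. Each match is only a match of letters in this window. Whether any motif bears on the expression results was not tested. The windows of 3 genes described below are given. They run 5′ to 3′ along the gene, and capitals mark sterol element, E-box and NF-Y box matches on either strand. Hmgcs1 (chr13:119690101-119690400, plus strand) is the window with the sterol element, which lies 137 bases before the start. Cyp51 (chr5:4104648-4104947, minus strand) has 1 NF-Y box. Fads2 (chr19:10101454-10101753, minus strand) has none of the 3 capitalised motifs. The matches in these windows do not overlap each other.
Hmgcs1: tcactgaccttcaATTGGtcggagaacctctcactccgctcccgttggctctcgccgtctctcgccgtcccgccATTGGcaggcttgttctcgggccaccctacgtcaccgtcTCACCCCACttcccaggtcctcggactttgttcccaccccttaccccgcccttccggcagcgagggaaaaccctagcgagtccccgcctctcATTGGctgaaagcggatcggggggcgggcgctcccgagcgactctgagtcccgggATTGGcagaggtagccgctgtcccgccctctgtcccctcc
Cyp51: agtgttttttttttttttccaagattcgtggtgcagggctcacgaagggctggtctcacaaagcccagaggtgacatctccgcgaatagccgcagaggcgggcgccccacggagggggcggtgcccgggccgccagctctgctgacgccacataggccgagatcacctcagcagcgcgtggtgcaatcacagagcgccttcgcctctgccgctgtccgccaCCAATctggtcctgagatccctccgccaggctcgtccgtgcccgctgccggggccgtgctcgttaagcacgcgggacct
Fads2: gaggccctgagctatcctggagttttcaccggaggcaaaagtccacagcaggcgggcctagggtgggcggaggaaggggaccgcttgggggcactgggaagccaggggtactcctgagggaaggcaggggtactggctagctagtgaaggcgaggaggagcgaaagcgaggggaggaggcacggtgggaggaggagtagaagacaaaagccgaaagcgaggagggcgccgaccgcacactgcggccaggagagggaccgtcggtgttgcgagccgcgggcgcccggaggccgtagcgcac
The genes with no entry in the table were Fdps, Fdft1, Sqle, Stard4, Scd1, Scd2 and Fads1.

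Total counts ran from 17859519 to 20415572 in the KO libraries and from 19060127 to 24108563 in the WT libraries, so 3 counts equalled 0.124 to 0.168 CPM (counts scaled by the library total). Levels are given below as CPM scaled by TMM, which corrects for the makeup of each library, and genes are compared with each other only per kilobase of exon, as RPKM. The RNA of the targeted gene did not separate the groups. Cdk6 had 41.28 (KO1), 75.14 (KO2) and 38.94 (KO3) CPM in KO lines, against 39.66, 45.64 and 55.84 CPM in WT1, WT2 and WT3. Its log2 fold change, KO over WT, was 0.14 ± 0.29 (SE, n = 3 lines each; edgeR adjusted p = 0.9; two-sided exact permutation p = 0.9, with 0.1 the smallest possible), and it was -0.22 without KO2. The libraries are therefore called KO and WT as labelled. KO2 stood apart: on the first principal component, with 67.9% of the variance, its score was 112.5, that of WT2 12.6, and the 4 remaining libraries scored -38.4 to -28.3. All 10 B lineage markers were above 1 CPM in every library (summed 4294 to 5478 CPM in KO, 4762 to 5007 CPM in WT). Of 7 T lineage markers 3 were at 0 throughout, Cd3e, Cd4 and Cd8a, and the sum of 1.333 to 81.29 CPM in KO and 65.23 to 68.48 CPM in WT was nearly all Lck, except in KO2, where Lck lay at 0.4103 CPM. The myeloid list (3 of 8 at 0) summed to 20.05 to 45.78 CPM in KO and 32.54 to 47.26 CPM in WT. Of its genes Lyz2, the lysozyme of macrophages and granulocytes, was lower in every KO line, at 12.19, 15.85 and 14.65 CPM, against 38.87, 27.16 and 37.05 CPM in WT (log2 fold change -1.27 ± 0.19; edgeR adjusted p = 0.479, DESeq2 adjusted p = 1.15e-05). Itgam, an integrin of myeloid cells, was high in KO1, at 28.87 CPM, and at most 4.755 CPM elsewhere. Erythroid, fibroblast and liver or fat markers stayed under 1 CPM in every library. The part of Lck and of the myeloid genes in the results below was not tested.

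Every one of the 32 genes was expressed enough to be tested, and none differed between KO and WT lines past the test used here. Most fold changes were small, with a median on the log2 scale of -0.09 for the 32 genes, beside 0.02 over all 10896 tested genes. Values were positive for 10 genes and negative for 22, beside 5748 positive and 5148 negative values over all tested genes. The 32 values ran from -1.16 for Fads2 to 0.53 for Insig2. The median size of the change, in either direction, was 0.138 on the log2 scale, beside 0.159 over all tested genes. In bulk RNA, fewer cells that express a gene and less RNA per cell cannot be told apart.

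At an adjusted p under 0.05 edgeR's quasi-likelihood test called 0 of the 32 genes, and it called 0% of the 10896 tested genes. The smallest adjusted p of the set was 0.506, for Cyp51. Unadjusted p under 0.05 was reached by 2 of 32 genes (6.25%), Cyp51 and Scap, where the share over all genes was 9.45%. The limma-voom fit called 0 of the 32 genes and 0 genes in all. DESeq2 also called 0 of the 32 (smallest adjusted p = 0.263, Cyp51), while it called 218 genes in all, 79 higher and 139 lower, or 1.94% of those with an adjusted p.

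Counting genes by whether the lines overlap gave 2 of 32 (6.25%), Hmgcs1 and Sc4mol, with every KO line above every WT line, where the share over all tested genes was 8.58%. In 6 of 32 (18.8%) every KO line was below every WT line, where the share over all genes was 11.0%. These were Sqle, Cyp51, Ebp, Srebf1, Scap and Fads2. The second count depended on the scaling. With CPM by library total alone, 3 of 32 (9.38%) were lower in every KO line, Sqle, Cyp51 and Fads2, beside 8.68% of all genes, and 2 of 32 were higher, Hmgcs1 and Sc5d, beside 10.6%. The plot of fold changes shows the size of these differences next to their intervals.

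**Figure D1:**
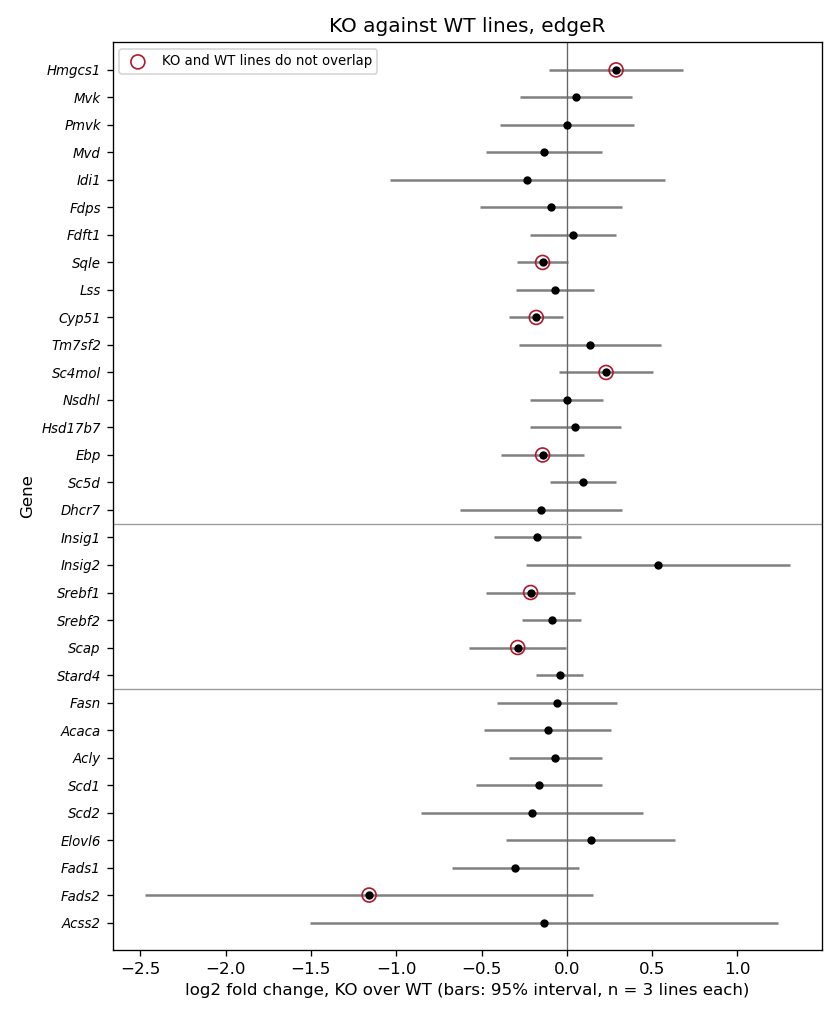
Log2 fold change of each of the 32 genes, KO over WT, from edgeR (point) with its 95% interval (bar), n = 3 lines each. Gray lines separate sterol enzymes, regulators and fatty acid enzymes; red rings mark the 8 genes whose KO and WT lines do not overlap. Fads2 has the lowest value, -1.16, with an interval of -2.47 to 0.16, and most other points lie close to 0.

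Per kilobase of exon, the 4 most abundant genes of the set were fatty acid enzymes. Scd2, a desaturase that makes monounsaturated fatty acids, led at 299.0 ± 103 RPKM in KO and 344.5 ± 7.85 RPKM in WT (mean ± SD, n = 3). Its paralog Scd1 followed at 145.4 ± 20.3 RPKM in KO and 162.6 ± 23.1 RPKM in WT, close to Acly, which makes cytosolic acetyl-CoA from citrate, at 139.7 ± 19.7 RPKM in KO and 146.3 ± 5.66 RPKM in WT. Scd1 and Acly, next to each other in this order, did not differ beyond their spread. Fatty acid synthase, Fasn, was next at 84.08 ± 13.1 RPKM in KO and 87.54 ± 10.0 RPKM in WT. Among regulators Srebf2 stood at 57.62 ± 2.88 RPKM in KO and 61.27 ± 3.51 RPKM in WT, and the most abundant sterol enzyme was Cyp51 at 33.77 ± 1.92 RPKM in KO and 38.23 ± 0.385 RPKM in WT. The lowest were Acss2, which makes acetyl-CoA from acetate, at 0.2016 ± 0.1 RPKM in KO and 0.2213 ± 0.117 RPKM in WT, and the isoprenoid isomerase Idi1 at 1.195 ± 0.452 RPKM in KO and 1.403 ± 0.0906 RPKM in WT.

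**Figure D2:**
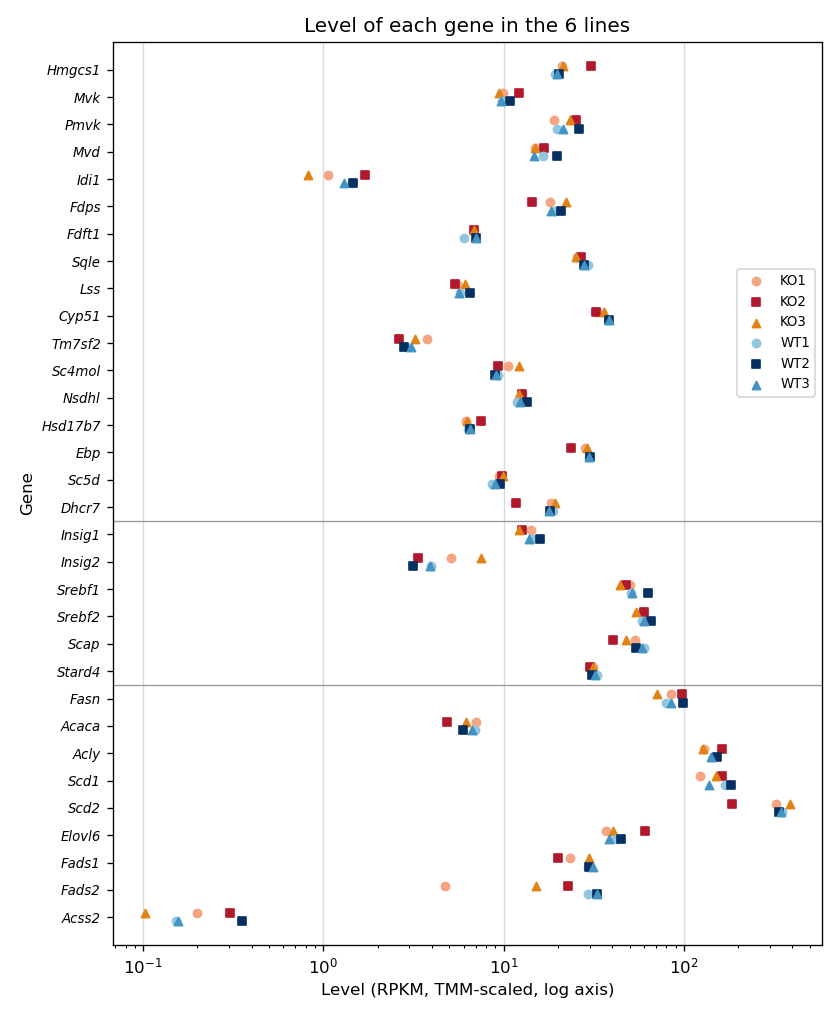
Level of each gene in RPKM (log axis) in KO1 to KO3 (red and orange) and WT1 to WT3 (blue), 1 point a library; gray lines separate the 3 roles. Most genes have all 6 points close together, Fads2 and Insig2 have a spread out KO group, and levels reach from Acss2 at the left to Scd2 at the right.

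The early steps of sterol synthesis, from acetyl-CoA units to farnesyl diphosphate, showed 1 gene higher in all KO lines. Hmgcs1, which joins acetyl units into HMG-CoA, lay at 96.33, 139.6 and 97.81 CPM in KO, against 89.09, 92.77 and 91.26 CPM in WT, each group in the order of its line numbers. The groups did not overlap, but KO1 and KO3 were only just above the WT lines and KO2 was far above them. The log2 fold change was 0.29 ± 0.16 (SE; adjusted p = 0.602), and 0.10 without KO2. Hmgcs1 lies on chromosome 13 in a stretch whose genes ran high in KO2: its 8 expressed neighbours within 5 Mb had a median log2 ratio of 0.52 in KO2 to the mean of the other 5 libraries, beside 0.58 for Hmgcs1 itself. The mevalonate kinases and decarboxylase Mvk, Pmvk and Mvd, and the farnesyl diphosphate synthase Fdps, had log2 fold changes between -0.13 and 0.05. Their groups overlapped. Idi1, which interconverts the isoprenoid building blocks, lay at 3.732, 5.949 and 2.882 CPM in KO, against 5.088, 5.112 and 4.551 CPM in WT, so that KO2 was highest and KO3 lowest (log2 fold change -0.23 ± 0.33). Idi1 is also on chromosome 13 but far from Hmgcs1, with starts at 8885606 and 119690351. Its 21 neighbours also had a median of 0.52 in KO2, beside its own 0.43. The chromosome was not high throughout in KO2. Of listed genes between the 2, the neighbours of Ggps1, Mylip and Faf2 had medians of -0.34, -0.87 and -0.48, and those of Elovl7 0.60.

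The squalene steps commit the pathway to sterols. Sqle, the oxygenase that turns squalene into its epoxide, lay at 140.7, 149.1 and 139.6 CPM in KO, against 163.5, 154.7 and 155.8 CPM in WT. All 3 KO lines were below all 3 WT lines, by a small margin (log2 fold change -0.14 ± 0.06, unadjusted p = 0.0571, adjusted p = 0.532). Fdft1, which makes squalene, and Lss, which folds the epoxide into lanosterol, overlapped between the groups, with log2 fold changes of 0.04 and -0.07.

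From lanosterol to cholesterol, single enzymes differed by small amounts in opposite directions. Cyp51, the lanosterol demethylase, lay at 144.8, 143.6 and 158.9 CPM in KO, against 167.1, 170.5 and 168.7 CPM in WT. Every KO line was below every WT line, and the WT lines were nearly level with each other (log2 fold change -0.18 ± 0.06, unadjusted p = 0.0323, adjusted p = 0.506). Sc4mol, the sterol methyl oxidase that acts a few steps later, ran the other way at 64.93, 57.44 and 75.08 CPM in KO, against 57.14, 55.38 and 55.79 CPM in WT. Its groups did not overlap, although KO2 was barely above WT1, and they did overlap with library totals alone as the scale (0.23 ± 0.11, adjusted p = 0.565; 0.33 without KO2 and 0.12 without KO3). Ebp, a sterol isomerase, lay at 65.65, 54.42 and 66.77 CPM in KO, against 68.49, 69.34 and 68.36 CPM in WT. KO2 was well below the rest, and KO1 and KO3 were just under the WT lines, a margin that library totals alone did not keep (-0.14 ± 0.10, adjusted p = 0.663; -0.05 without KO2). Dhcr7, the reductase of the last step, lay at 106.8, 68.42 and 112.1 CPM in KO, against 109.5, 105 and 104.2 CPM in WT. Only KO2 was low here, and the other KO lines were within or above the WT range. The remaining enzymes, Tm7sf2, Nsdhl, Hsd17b7 and Sc5d, had log2 fold changes from 0.00 to 0.14 and overlapped between groups. Over the 17 sterol enzymes the median log2 fold change was -0.00, with 8 positive and 9 negative values, and it was 0.02 with library totals alone and 0.01 with the RLE size factors. Their summed level was 1025 ± 34 CPM in KO and 1051 ± 26.6 CPM in WT (SD, n = 3).

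Of the regulators 5 of 6 had a negative fold change, beside 5148 of all 10896 tested genes. Their median was -0.13, and none passed the test. Scap, the escort of the SREBP factors, lay at 397.6, 299.3 and 355.1 CPM in KO, against 446.8, 402.5 and 434.6 CPM in WT. The groups did not overlap, with KO2 lowest and KO1 only just below WT2 (log2 fold change -0.29 ± 0.12, unadjusted p = 0.0488, adjusted p = 0.529; -0.18 without KO2). With library totals alone as the scale the Scap groups overlapped. Srebf1 lay at 281.6, 270.2 and 250.6 CPM in KO, against 286.3, 354.4 and 288.6 CPM in WT. Its KO lines were all below its WT lines, KO1 by little, and WT2 was the high library (-0.21 ± 0.11, adjusted p = 0.573; -0.10 without WT2); with library totals alone these groups overlapped too. Srebf2 lay at 422.5, 428.9 and 390.4 CPM in KO, against 421.8, 468.9 and 429.7 CPM in WT, so the groups overlapped and KO3 was lowest (-0.09 ± 0.07, adjusted p = 0.716; -0.04 without WT2 and -0.05 without KO3). The ratio of Srebf2 to Srebf1 counts was 1.5, 1.59 and 1.56 in KO1, KO2 and KO3, against 1.47, 1.32 and 1.49 in WT1, WT2 and WT3.

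The INSIG genes encode the anchors that hold SCAP in the endoplasmic reticulum. Insig1, itself an SREBP target, lay at 44.13, 39.29 and 37.47 CPM in KO, against 44.25, 49.1 and 42.83 CPM in WT. KO2 and KO3 were below all WT lines and KO1 was within their range (log2 fold change -0.17 ± 0.10, adjusted p = 0.626; -0.11 without WT2). Set against the WT line of the same number, each KO line was lower, though the numbers may not mark pairs. The fit with the replicate number as a block gave -0.17 (adjusted p = 0.601). Insig2 had the highest fold change of the set, 0.53 ± 0.31 (adjusted p = 0.62), with 17.73, 11.59 and 26.13 CPM in KO, against 13.72, 10.92 and 13.65 CPM in WT. KO1 and KO3 were above every WT line and KO2 was among them, while each KO line was above the WT line of its number (0.47 with the block, adjusted p = 0.55). The log2 fold change was 0.79 without KO2 and 0.20 without KO3. The ratio of Insig1 to Insig2 counts was lowest in KO3, at 2.49, 3.39 and 1.43 in KO1, KO2 and KO3, against 3.22, 4.5 and 3.14 in WT1, WT2 and WT3. Stard4, a cholesterol transfer protein, was nearly constant at 175.2, 169.3 and 175.6 CPM in KO, against 183.1, 172.5 and 179.8 CPM in WT (-0.04 ± 0.06). Its 59 neighbours on chromosome 18 had a median log2 ratio of -0.52 in KO2 to the other 5 libraries. The regulators summed to 1264 ± 65.1 CPM in KO and 1415 ± 38.1 CPM in WT (SD, n = 3), and the KO sums of 1339, 1219 and 1235 CPM were all below the WT sums of 1396, 1458 and 1389 CPM. The sums mostly repeat Srebf2, Scap and Srebf1, with WT means of 440.2, 428 and 309.8 CPM. Insig2, with a WT mean of 12.76 CPM, ran the other way and weighed little.

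Among the fatty acid enzymes the core of the pathway did not separate the groups. Fasn lay at 925.7, 1062 and 774 CPM in KO, against 868, 1080 and 926.6 CPM in WT. KO2 and WT2 were the high libraries of their groups and KO3 the lowest of all (log2 fold change -0.06 ± 0.14, adjusted p = 0.916). Acaca, the carboxylase that makes malonyl-CoA, lay at 120, 82.73 and 106.1 CPM in KO, against 118.3, 101.1 and 114.7 CPM in WT. KO2 was lowest, KO1 was highest, and the groups overlapped (-0.11 ± 0.15, adjusted p = 0.836). Acly, at 683.9, 857.1 and 671.6 CPM in KO, against 769.4, 803.6 and 744.1 CPM in WT, was highest in KO2 and below all WT lines in KO1 and KO3 (-0.07 ± 0.11). Acss2 was at 2.031, 3.077 and 1.04 CPM in KO, against 1.543, 3.621 and 1.583 CPM in WT, and the groups overlapped.

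The genes of elongation and of the first desaturation overlapped between the groups. Scd2 lay at 1779, 1012 and 2111 CPM in KO, against 1923, 1837 and 1887 CPM in WT. KO2 was by far the lowest, KO3 was above all WT lines and KO1 just below them. The log2 fold change was -0.20 ± 0.26 (adjusted p = 0.829) and 0.05 without KO2. Scd1 lay at 600.3, 791.8 and 741.2 CPM in KO, against 821.5, 893.4 and 671.9 CPM in WT, with KO1 lowest and overlapping groups (-0.16 ± 0.15, adjusted p = 0.758; -0.05 without KO1, -0.07 without WT2 and -0.27 without WT3). The ratio of Scd2 to Scd1 counts was 2.96, 1.28 and 2.85 in KO1, KO2 and KO3, against 2.34, 2.06 and 2.81 in WT1, WT2 and WT3, so KO2 stood alone at the low end. Reads shared between these paralogs may have been split by the counting, which was not tested. Of the 2 other genes of the Scd cluster, Scd3 had at most 4 counts in any library and Scd4 at most 17. Apart from Scd1, 7 genes within 250 kb of Scd2 were tested. Their log2 ratios in KO2 to the other 5 libraries ran from -0.78 to 0.37, beside -0.91 for Scd2. The lowest ratios, -0.78 for Scd4 and -0.76 for Sec31b, rested on 3 and 26 counts in KO2. Erlin1, with 1040 counts in KO2, was next at -0.53. Elovl6, which lengthens palmitate to stearate, lay at 237.6, 391.1 and 260.8 CPM in KO, against 271.4, 286.9 and 248.2 CPM in WT, and only KO2 was outside the WT range by a wide margin (0.14 ± 0.20).

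Fads2, the desaturase that opens the synthesis of long polyunsaturated fatty acids, showed the widest separation of the 32 genes. It lies on chromosome 19 (10062765 to 10101503, minus strand). It had 15.59 (KO1), 75.03 (KO2) and 50.04 (KO3) CPM in KO lines, against 96.68, 109 and 108.7 CPM in WT1, WT2 and WT3. Every KO line was below every WT line under both scalings, and KO1 was far below the others. Against the WT mean the level was 0.153-fold in KO1 and 0.48-fold in KO3. The log2 fold change was -1.16 ± 0.53 (95% interval -2.47 to 0.16, unadjusted p = 0.074, adjusted p = 0.553; DESeq2 adjusted p = 0.291), and it was -1.66 without KO2 and -0.74 without KO1. Among all tested genes, 4.5% had a fitted change of over 2-fold, and Fads2 was the only gene of the set that did.

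Fads1, the desaturase that acts after Fads2 and lies beside it on the same chromosome, lay at 112.9, 96.37 and 143.2 CPM in KO, against 140.6, 142.5 and 151.2 CPM in WT. KO1 and KO2 were below all WT lines and KO3 was within their range (log2 fold change -0.30 ± 0.15, adjusted p = 0.573; -0.17 without KO2 and -0.47 without KO3). Each KO line was below the WT line of its number (-0.32 with the block, adjusted p = 0.528). Fads2 was lowest in KO1 and Fads1 in KO2, and the ratio of Fads1 to Fads2 counts was 7.24, 1.28 and 2.86 in KO1, KO2 and KO3, against 1.45, 1.31 and 1.39 in WT1, WT2 and WT3. Fads3, the third gene of the cluster, had 15 counts in KO2 and 0 in the other libraries. Apart from Fads1, 4 genes within 250 kb of Fads2 were tested. In KO1 their log2 ratios to the other 5 libraries ran from -0.17 to -0.08, beside -2.46 for Fads2. Of these, Fth1, the ferritin heavy chain, was lower in every KO line at 657.4, 609 and 505.9 CPM, against 824, 954 and 813.1 CPM in WT (-0.55 ± 0.12; edgeR adjusted p = 0.479, DESeq2 adjusted p = 0.00698, or 0.107 without WT1 and 0.081 without WT3). Over the 9 fatty acid enzymes 8 fold changes were negative, beside 5148 of all 10896 tested genes. Their median was -0.13, and -0.07 without WT2. The summed level was 4569 ± 257 CPM in KO and 5041 ± 204 CPM in WT (SD, n = 3). The KO sums of 4476, 4371 and 4859 CPM overlapped the WT sums of 5010, 5258 and 4854 CPM. Scd2, by far the lowest in KO2, weighed most, with means of 1634 CPM in KO and 1882 CPM in WT.

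**Figure D3:**
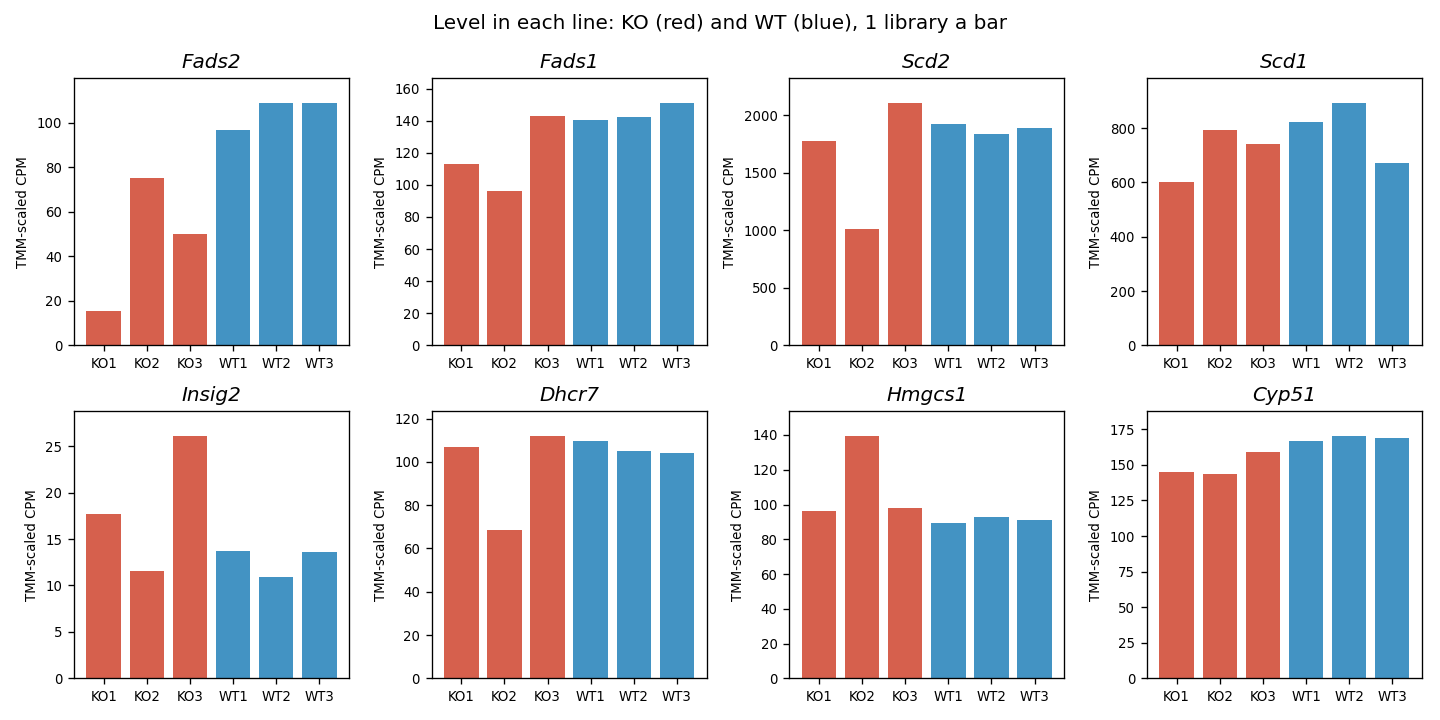
TMM-scaled CPM of 8 genes in each line, KO1 to KO3 (red) and WT1 to WT3 (blue), 1 library a bar, axes from 0. Fads2 is low in all 3 KO lines with KO1 lowest, Scd2 and Dhcr7 are low in KO2 only, Insig2 is high in KO3, and Cyp51 is slightly lower in every KO line.

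Taken line by line, each KO line was set against the WT mean, at a cut of 1.5-fold. KO1 had 1 of 32 genes (3.12%) at least 1.5-fold from the WT mean, Fads2, where 9.29% of all tested genes were that far in KO1. KO2 had 3 of 32 (9.38%), with Hmgcs1 at 1.53-fold, Dhcr7 at 0.646-fold and Scd2 at 0.538-fold, where the share of all genes was 26.9%. KO3 had 4 of 32 (12.5%), where the share of all genes was 13.0%. They were Idi1 at 0.624-fold, Insig2 at 2.01-fold, Fads2 at 0.48-fold and Acss2 at 0.56-fold. Fads2 was the only gene on the list of more than 1 line. The SD of the log2 level was larger in KO than in WT for 22 of 32 genes (68.8%), beside 82.9% of all tested genes, and its median was 0.201 in KO and 0.086 in WT.

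**Figure D4:**
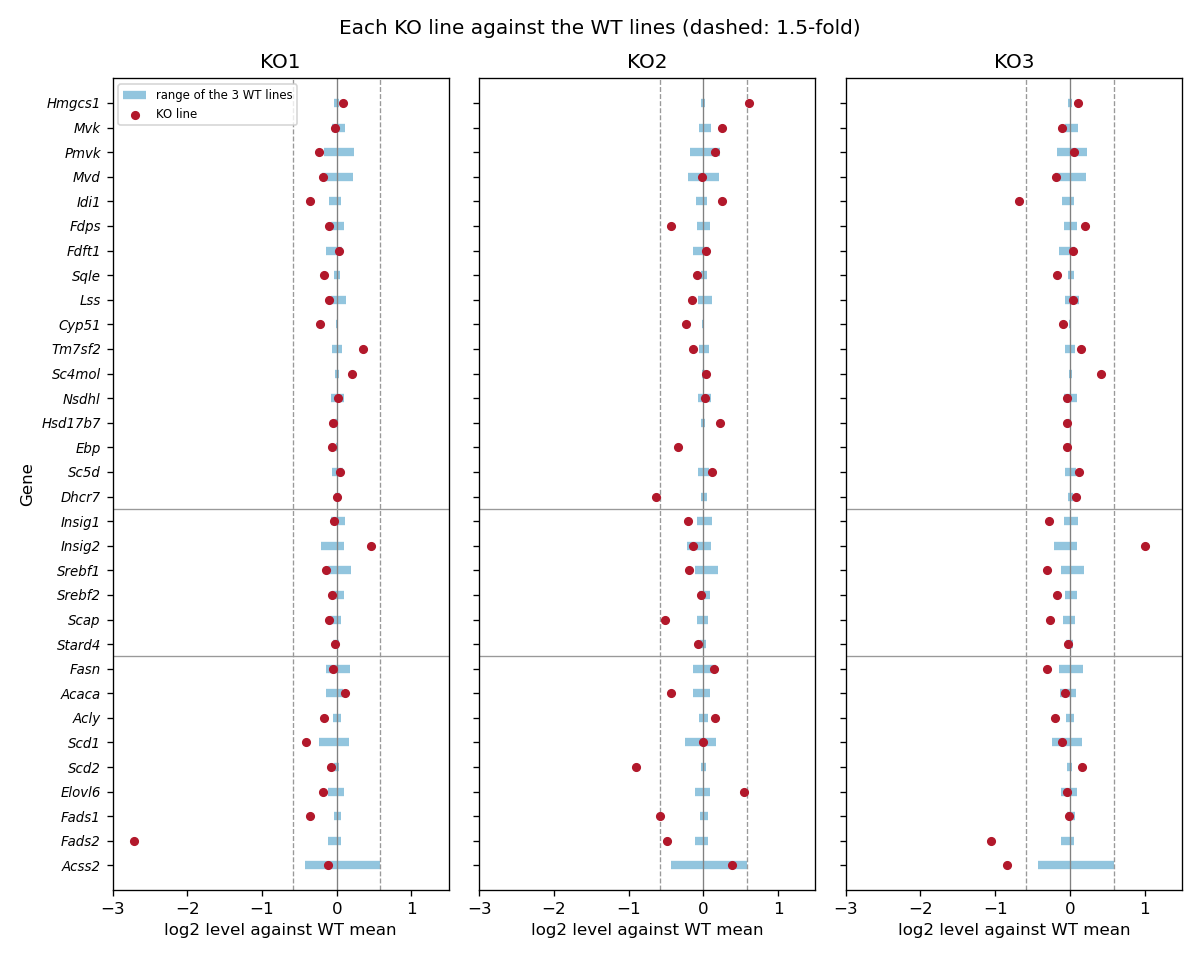
Log2 ratio of each gene in KO1, KO2 and KO3 (red points, 1 panel a line) to the WT mean, after adding 0.5 CPM, with the range of the 3 WT lines in blue and dashed lines at 1.5-fold. The points outside the dashed lines are Fads2 in KO1, Hmgcs1, Dhcr7 and Scd2 in KO2, and Idi1, Insig2, Fads2 and Acss2 in KO3.

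In KO2 the position of a gene in the genome was compared with its level. Only Hmgcs1, Idi1 and Stard4 lay among neighbours whose median log2 ratio in KO2 was far from 0, at 0.52, 0.52 and -0.52. For the other 29 genes the neighbours' median lay between -0.10 and 0.13. Scd2 at -0.91 and Dhcr7 at -0.65 had neighbours at 0.03 and 0.13.

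**Figure D5:**
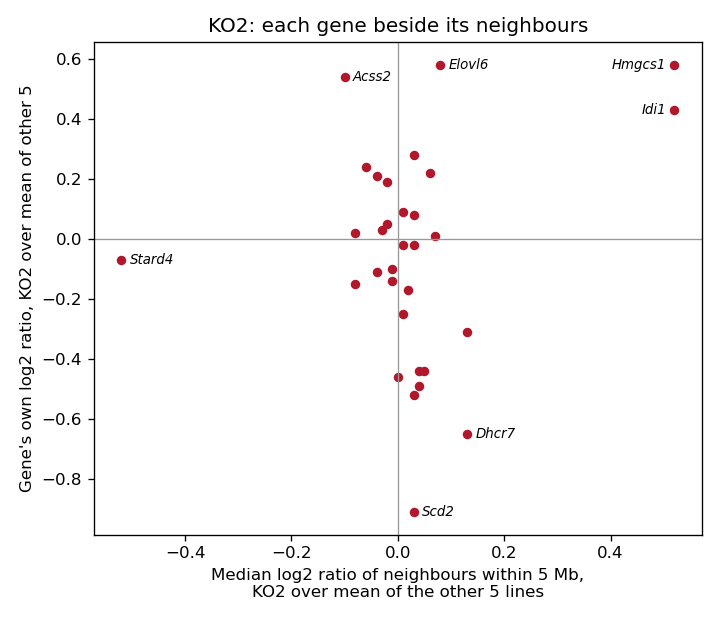
Each gene's own log2 ratio in KO2 to the mean of the other 5 libraries (vertical) against the median of its expressed neighbours within 5 Mb (horizontal), 1 point a gene. Hmgcs1 and Idi1 lie at the upper right, Stard4 at the far left near 0, and Scd2 and Dhcr7 low in the middle column.

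Genes of neighbouring pathways were set beside the 32. In each of the 5 lists edgeR called 0 genes in either direction. In the isoprenoid branch, which makes prenyl groups, dolichol and ubiquinone, 0 of 14 tested genes had an unadjusted p under 0.05 and the median log2 fold change was -0.04. Its smallest p-values belonged to the prenyl transferase subunits Rabggtb (-0.11 ± 0.06), Fnta (-0.12 ± 0.07) and Rabggta (0.18 ± 0.16) and the CAAX protease Rce1 (-0.22 ± 0.12). Rabggtb, Fnta and Rce1, 3 of 14 (21.4%), were lower in all KO lines, beside 11.0% of all genes. With library totals alone the Rce1 groups overlapped, leaving 2 of 14 (14.3%) beside 8.68%.

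In the list of SREBP processing and sterol handling, 17 of 18 genes were tested and the median was -0.02. An unadjusted p under 0.05 was reached by 2 of 17, beside 9.45% of all genes. In 4 of 17 (23.5%, beside 11.0% of all genes) every KO line was lower. With library totals alone 2 of 17 (11.8%, beside 8.68%) were lower, Lrp8 and Lbr, and 1 (5.88%, beside 10.6%), Soat1, was higher. Lrp8, a lipoprotein receptor, lay at 58.62, 54.06 and 56.85 CPM in KO, against 72.82, 66.46 and 70.88 CPM in WT (-0.31 ± 0.07; edgeR adjusted p = 0.479, DESeq2 adjusted p = 0.0416). Lbr, the lamin B receptor, which is also a sterol reductase like Tm7sf2, lay at 430.8, 442.1 and 446.2 CPM in KO, against 497.7, 540.8 and 493 CPM in WT (-0.22 ± 0.06; edgeR adjusted p = 0.479, DESeq2 adjusted p = 0.0443). In both genes the KO lines were close together and clearly below the WT lines. They were the only genes of the 5 lists that DESeq2 called on all 6 libraries, 2 of the 17 tested here. The other lists had 0 calls among 14, 8, 19 and 14 tested genes. Over all genes with an adjusted p, DESeq2 called 1.94%. Without WT1 the DESeq2 adjusted p was 0.399 for Lrp8 and 0.255 for Lbr, and without WT3 it was 0.439 and 0.165. The Lrp8 call was also lost without KO2 (0.0698) and without KO3 (0.126), and that of Lbr without KO1 (0.124) and without KO3 (0.0866). Without WT2 and KO2 both were lost, at 0.167 for Lrp8 and 0.222 for Lbr. The HDL receptor Scarb1 (-0.20 ± 0.08) and Acat2, which joins acetyl-CoA units (-0.17 ± 0.09), were lower in all KO lines too, but overlapped with library totals alone, with edgeR adjusted p of 0.534 and 0.601. DESeq2 called Scarb1 when KO3 was left out (adjusted p = 0.00806).

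In the list of LXR factors and sterol efflux 8 of 12 genes were tested, with a median of -0.07, 0 genes at an unadjusted p under 0.05 and overlapping groups for all 8. Lpcat3, a phospholipid remodelling enzyme, had a log2 fold change of 0.36 ± 0.19. It was highest in KO2, at 120.1 CPM, beside 75.75 and 83.87 CPM in KO1 and KO3. Its 65 neighbours within 5 Mb had a median log2 ratio of 0.56 in KO2 to the other 5 libraries, beside its own 0.67. The receptors Rxrb and Nr1h2 had log2 fold changes of 0.16 ± 0.10 and 0.29 ± 0.20. Rxra, a partner of the LXR receptors, lay at 56.92, 136.5 and 20.46 CPM in KO, against 114, 121.5 and 122 CPM in WT. KO1 and KO3 were low and KO2 was highest of all (-0.74 ± 0.64, adjusted p = 0.736; in DESeq2 without KO2 -1.62, adjusted p = 0.0309).

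Among other genes of fatty acid and lipid synthesis 19 of 23 were tested, with a median of -0.02. Of the 19, 1 gene, Acsl1, had an unadjusted p under 0.05, beside 9.45% of all genes. Acsl1, which activates long fatty acids with CoA, lay at 131, 116.3 and 129.4 CPM in KO, against 175.1, 145.2 and 173.5 CPM in WT. All KO lines were below all WT lines (-0.39 ± 0.10, unadjusted p = 0.00822, adjusted p = 0.479; DESeq2 adjusted p = 0.0617). Leaving out 1 library, its DESeq2 adjusted p was 3.72e-06 without WT2 and between 0.0566 and 0.582 without any other. Lpin1, a phosphatidate phosphatase, was also lower in each KO line, at a mean of 3.446 ± 1.54 CPM in KO and 5.427 ± 0.21 CPM in WT (-0.65 ± 0.41). Acsl1 and Lpin1 were 2 of 19 (10.5%), beside 11.0% of all genes. Mid1ip1, an activator of Acaca, had 0.23 ± 0.11, and Hsd17b12, an enzyme of fatty acid elongation, -0.17 ± 0.09. In fatty acid oxidation 14 of 16 genes were tested, with a median of -0.01 and 0 genes at an unadjusted p under 0.05. The 4 with the smallest p were Acads (-0.13 ± 0.06), Etfb (-0.19 ± 0.10), Hadh (-0.15 ± 0.10) and Etfa (-0.11 ± 0.08), and Acads and Etfb, 2 of 14 (14.3%, beside 11.0% of all genes), were lower in all KO lines. With library totals alone the Etfb groups overlapped, leaving 1 of 14 (7.14%) beside 8.68%. Cpt1a, the gate of fatty acids into mitochondria, lay at 25.58, 204 and 24.57 CPM in KO, against 28.28, 85.63 and 27.7 CPM in WT. KO2 and WT2, the libraries that stood apart from the rest on the first principal component, were the high ones.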

How the data were processed

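The deposited table held raw read counts per gene symbol, made by the authors, 1 column per library, not normalized. The submitters' processing notes name GRCm38 as the build and STAR, Trim Galore and DESeq2 as tools; the counter, strandedness and versions were not given in the sources used here. Overlapping and antisense genes could not be told apart.

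The genes and lists were chosen with earlier results of these data known. Counts were tested in edgeR 4.0.16 (R 4.3.3): TMM scaling, filterByExpr, a robust quasi-likelihood F test on genotype over all 6 libraries, two-sided, with Benjamini-Hochberg adjustment over 10896 genes. The fit was also run on simulated counts with 200 changed genes and the same spread in both groups. Over all tested genes the real median SD of the log2 level was 0.233 in KO and 0.103 in WT. The simulation therefore cannot show what size of change the fit detects in these lines. Alternatives were DESeq2 1.42.0, limma-voom (limma 3.58.1), other scalings and filters, the replicate block and leaving out libraries. RPKM used union exon lengths (GENCODE), locations RefSeq tables of GRCm38. Neighbours averaged 5 CPM or more, and 0.5 CPM was added before taking ratios to the WT mean or the other 5 libraries. Principal components used a prior count of 2.

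All 32 genes are accounted for. Values in every library were given by rule for those with an unadjusted p under 0.05 or groups that do not overlap and for Hmgcs1, Sqle, Insig1, Srebf1, Srebf2, Fasn, Acaca, Scd1 and Scd2, and in each list up to 4 genes of smallest unadjusted p and mean log2 CPM no lower than 1 were named. Idi1, Dhcr7, Insig2, Stard4, Acly, Acss2, Elovl6, Fads1, Cpt1a, Fth1, Lyz2, Itgam, Soat1 and Pltp were chosen after their values were seen. Of the list genes 1 was matched by synonym and 1 had no row.

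KO and WT share replicate numbers. The deviations from the group means were correlated across genes. The values were 0.33 for KO1 and WT1, 0.64 for KO2 and WT2 and 0.46 for KO3 and WT3, all above the criterion of 0.1. KO3 and WT1 correlated at 0.41 and KO1 and WT3 at 0.36, so the values do not show which of these lines belong together. The criterion therefore cannot decide whether the numbers mark pairs. The main fit used genotype alone, and the replicate block was an alternative.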

Additional observations from a re-analysis of the deposited data

How the results depend on the processing

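In all, 24 results were recomputed under 22 settings, 15 planned and 7 chosen after seeing the data (DESeq2 leaving out libraries). Of 528 values, 483 kept direction and side of the threshold, or stayed within the spread for medians and counts. edgeR called no gene on all 6 libraries, so it had no call to lose. Intervals cover the spread between these 6 lines only, and depth limits mainly Acss2 and Idi1, the genes with the fewest reads.

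edgeR called 0 genes under every setting. DESeq2 called 218 genes, 51 without WT1, 277 without WT2, 47 without WT3, 471 without KO1, 684 without KO2, 245 without KO3, and 340 without WT2 and KO2. Of the 32 genes it called 0, and 0 to 2 leaving out 1 library: Fads2 without KO1 (-0.73, adjusted p = 0.0334, range over settings 0.0334 to 0.997), Insig2 (0.79, adjusted p = 0.0484, range 0.0484 to 0.999) and Acly (adjusted p = 0.0411) without KO2, and Cyp51 (-0.22, adjusted p = 0.00609, range 0.00609 to 0.997) and Fads1 (-0.46, adjusted p = 0.00547, range 0.00547 to 0.999) without KO3. Without KO1, KO2 and KO3 these were 1, 2 and 2 of the 32 genes. Beside them stood the 471, 684 and 245 calls among 14162, 14115 and 14200 genes fitted. Of the genes fitted, 2891, 2619 and 2636 had no adjusted p. In DESeq2 the calls among the 5 lists were as follows. Of the 5 pathway lists it called 2 genes, 3 without WT2, 4 without KO2, 1 without KO1, 1 without KO3, 0 without WT1 or WT3 and 2 without WT2 and KO2. The 2 on all libraries were Lrp8 and Lbr, and the 2 without WT2 and KO2 were Acsl1 and Pltp. The cause was not tested.

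The median log2 fold change of the 32 genes was -0.11 to -0.04 leaving out 1 library and -0.04 without WT2 and KO2 in edgeR and DESeq2. Signs turned as follows. Cdk6 was -0.24 (edgeR) and -0.25 (DESeq2) without WT2 and KO2, -0.22 and -0.23 without KO2, and up to 0.31 without KO3. Scd2 was 0.04 and 0.03 without WT2 and KO2, 0.05 without KO2, and down to -0.43 without KO3. Acaca was 0.03 without KO2 and -0.23 without KO1. Fasn was 0.04 without WT2, 0.05 (edgeR) and 0.06 (DESeq2) without KO3, and -0.17 without KO2. The replicate block gave 0 called genes, a median of -0.10 for the 32 genes and -1.40 for Fads2, and changed no call.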
